A study of Mus musculus with 16 samples.

Results

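The germ cell and meiosis genes described here are 38 named genes of the germline, found by symbol among the 89407 rows of a gene count table from medullary thymic epithelial cells (mTEC). They fall into 11 early germline genes, 11 meiotic genes and 16 late gamete genes, of which 10 belong to sperm and 6 to the oocyte. All 38 were found in the table.

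RNA was sequenced from mature and immature mTEC of 8 mice, with 1 library of each population per mouse and 16 libraries in all. The study asked how the splicing factors RBFOX1 and RBFOX2 act in these cells. Rbfox1 tKO mice were homozygous for floxed Rbfox1 and carried a Cre allele at Foxn1, a gene of thymic epithelium, and the Rbfox2 tKO mice carried floxed Rbfox2 in the same way. Control mice of each line had the same floxed alleles and wild-type Foxn1, so the Cre allele and the loss of the RBFOX gene cannot be told apart. Each line had 2 tKO and 2 control mice, 1 female and 1 male of each, aged 4 to 6 weeks and labelled as C57BL/6, while the study's methods give a mixed background. Cells were sorted as CD45-, EpCAM+, Ly51- and UEA+, with MHCII high for mature and MHCII low for immature mTEC.

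Mature libraries held 3737884 to 4636367 counts and immature libraries 1506134 to 2430287, so depth went with population. Of the targeted genes in CPM (counts per 1e+06 scaled counts of the library), Rbfox2 stood at 9.51 and 16.3 CPM in mature mTEC of Rbfox2 tKO mice against 59.1 and 57.4 CPM in their controls, and Rbfox1 at 34.7 and 30.2 CPM in mature mTEC of Rbfox1 tKO mice against 53.3 and 49.3 CPM in theirs. In immature mTEC Rbfox2 stood at 36.2 and 22.6 CPM in Rbfox2 tKO mice against 105 and 92.4 CPM in controls. Rbfox1 there stood at 146 and 149 CPM in Rbfox1 tKO mice against 162 and 160 CPM in controls, a small difference. A floxed allele loses only part of its exons, so these gene totals need not reach 0. Counts per exon were not examined, and why the totals stayed above 0 was not tested. Epithelial identity was checked on 3 markers (Epcam, Krt8 and Cdh1), which summed to 2733 to 3164 CPM in mature and 3458 to 4096 CPM in immature mTEC. Mature mTEC markers (Aire, Cd80, Cd86, Fezf2, H2-Aa and Ctss) summed to 6697 to 7224 CPM in mature and 2674 to 3203 CPM in immature libraries. Aire, the transcriptional regulator that defines mature mTEC, stood at 651 to 1612 CPM in mature and 18.8 to 299 CPM in immature libraries. The 5 immature mTEC markers (Itgb4, Krt5, Pdpn, Trp63 and Ccl21a) summed to 4280 to 6324 CPM in immature and 813 to 1167 CPM in mature libraries, though Ccl21a reached only 2.69 CPM at most in immature ones. The 6 thymocyte and blood cell genes summed to 45.4 to 58.6 CPM in mature and 3.41 to 23.3 CPM in immature mTEC, led by Cd4. Genes of cortical thymic epithelium summed to 544 to 704 CPM in mature and 182 to 248 CPM in immature mTEC. In mature mTEC most of this came from Ccl25, at 390 to 531 CPM against 47.7 to 65.7 CPM in immature mTEC. Ly75 was also higher in mature mTEC, at 84.2 to 117 against 47.3 to 78.6 CPM. Prss16 was lower there, at 38.3 to 55.2 against 69.4 to 90.4 CPM. The cortical proteasome gene Psmb11 overlapped, at 8.98 to 17.2 CPM in mature and 8.52 to 15.6 CPM in immature mTEC. Fibroblast and endothelial genes (Pdgfra, Col1a1, Col3a1, Pecam1 and Cdh5) summed to 254 to 387 CPM in mature and 153 to 1499 CPM in immature mTEC. In the Rbfox2 line they were higher in immature mTEC, at 880 to 1499 against 305 to 387 CPM, and in the Rbfox1 line the populations overlapped. The part of the thymocyte, cortical and fibroblast lists in the differences below was not tested.

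Germ cells are set aside early from the other cells of the body. They silence transposons with small RNAs bound to PIWI proteins, and pair and recombine their chromosomes in meiosis to form sperm or oocytes. Most of the genes for these steps are silent in other tissues. Mature mTEC are known for transcribing many such tissue-restricted genes, much of it under AIRE, so that T cells reactive to the products can be deleted. Testis and oocyte proteins are among the antigens shown in this way.

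The sequences upstream of the genes are described next, and their part in the difference between the populations was not tested. RefSeq promoters matched 28 of the 38 members, with 33 starts. The 250 bases before each start were searched on both strands for CACGTG (an E-box), GCGGGA (the core bound by E2F factors), TGACGTCA (a cAMP response element) and TATAAA (the TATA box). The E-box run was found before 11 of the 28 genes, against 6.86% of the 27025 genes in the table of promoters. The E2F run was found before 9 of them, against 18.8% of all genes, and the TATA run before 3, against 14.3%. None of the 28 held the cAMP run, which 1.77% of all genes had. The 8 early germline members with a promoter included 5 with the E-box run, and the 9 meiotic members 4. CpG dinucleotides also differed between the classes. Taking the most CpG-rich start of each gene, the median was 17.5 CpG in the 250 bases for early germline members and 13 for meiotic ones, against 2.5 for sperm and 5 for oocyte members and 6 over all genes. A match here is a run of letters and was not tested as a binding site.

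The promoters below belong to the members with the largest difference between mature and immature mTEC in each class that held a searched run outside annotated exons. Bases are from RefSeq on GRCm38.p6, 5′ to 3′ on the strand of the gene, and capitals mark the matches. Positions are counted back from the RefSeq start, and bases in annotated exons were left out. Tdrd9 is at chr12:111971309-111971558 on the plus strand, Piwil4 at chr9:14740734-14740922 on the minus strand, Smc1b at chr15:85131965-85132077 on the minus strand, Zp3 at chr5:135979855-135980098 on the plus strand and Nlrp5 at chr7:23385639-23385888 on the plus strand.
Tdrd9: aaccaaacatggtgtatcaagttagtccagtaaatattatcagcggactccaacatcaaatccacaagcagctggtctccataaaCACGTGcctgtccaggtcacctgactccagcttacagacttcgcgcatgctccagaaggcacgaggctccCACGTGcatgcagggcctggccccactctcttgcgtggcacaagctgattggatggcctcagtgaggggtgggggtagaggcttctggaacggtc
Piwil4: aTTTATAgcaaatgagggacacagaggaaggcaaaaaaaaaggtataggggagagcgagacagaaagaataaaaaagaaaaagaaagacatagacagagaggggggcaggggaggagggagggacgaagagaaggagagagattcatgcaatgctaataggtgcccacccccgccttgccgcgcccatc
Smc1b: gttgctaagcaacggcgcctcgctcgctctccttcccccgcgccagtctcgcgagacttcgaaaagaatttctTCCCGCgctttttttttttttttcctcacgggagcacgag
Zp3: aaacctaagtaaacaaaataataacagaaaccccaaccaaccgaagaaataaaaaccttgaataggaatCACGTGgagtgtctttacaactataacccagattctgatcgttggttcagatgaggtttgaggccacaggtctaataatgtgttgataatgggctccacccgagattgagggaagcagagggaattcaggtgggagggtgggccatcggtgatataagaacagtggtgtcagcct
Nlrp5: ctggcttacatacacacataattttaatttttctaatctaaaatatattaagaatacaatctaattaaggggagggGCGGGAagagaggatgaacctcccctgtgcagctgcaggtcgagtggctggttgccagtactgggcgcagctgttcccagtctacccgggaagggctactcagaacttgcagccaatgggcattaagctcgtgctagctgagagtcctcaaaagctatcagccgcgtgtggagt
Tdrd9 held the E-box run at 165 and 95 bases before its start, and Zp3 held it at 181 bases. Smc1b and Nlrp5 held the E2F run, 47 bases before the start in Smc1b and 174 in Nlrp5. In Piwil4 the TATA run alone was found, read on the opposite strand and 249 bases before the start. Of the sperm members whose libraries did not overlap between the populations, Tnp2, Prm1 and Zan, none held any of the 4 runs in its RefSeq window.

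Members were counted far more widely in mature than in immature mTEC. After each library was thinned to 1506134 counts, the smallest total, 32.4 ± 0.483 of the 38 members were expected to have a count in a mature library and 14.0 ± 2.68 in an immature one (SD, n = 8 mice). The difference within a mouse was 18.4 ± 2.55 members (SD, n = 8), and it was positive in 8 of 8 mice. In share, 85.2% of members were counted in mature and 36.7% in immature mTEC, against 79.2% and 68.0% of the 21865 protein-coding genes at the same depth. A difference in the number of expressing cells and a difference in RNA per cell cannot be told apart in these bulk libraries.

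The 4 classes were not counted alike. Oocyte members were nearly complete in mature mTEC, with 5.64 ± 0.0726 of 6 counted, and 1.76 ± 0.892 were counted in immature mTEC (SD, n = 8). Early germline members stood at 10.1 ± 0.381 of 11 in mature and 4.72 ± 1.26 in immature mTEC. Meiotic members stood at 9.81 ± 0.305 of 11 and 5.34 ± 1.03. Sperm members were the least complete, with 6.81 ± 0.454 of 10 in mature and 2.13 ± 0.885 in immature mTEC. In each class and each mouse the mature library had more members than the immature one.

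**Figure D1:**
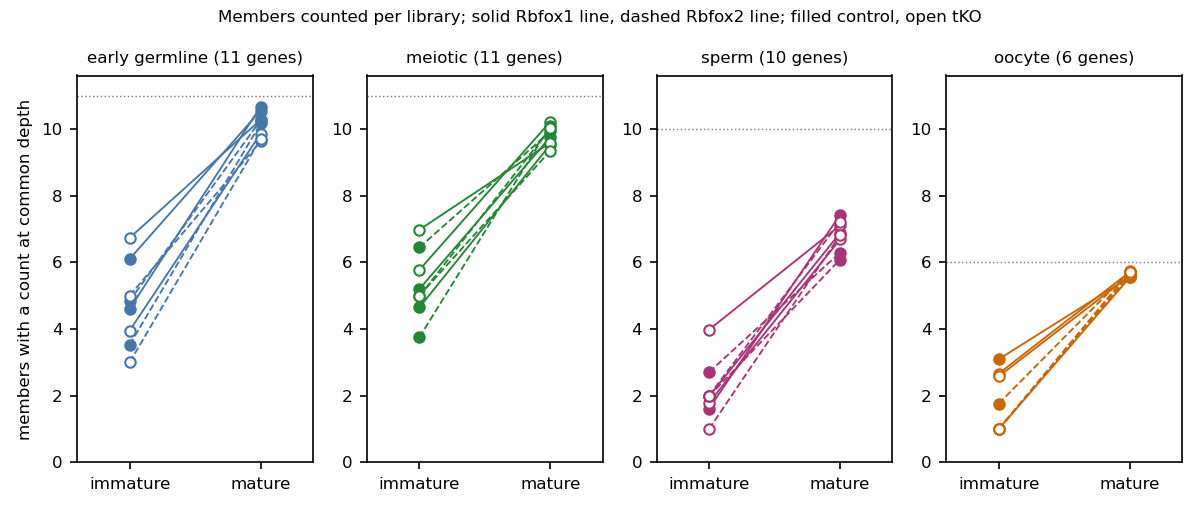
Expected number of members with at least 1 count per library at 1506134 counts (y axis), in immature and mature mTEC of each mouse joined by a line, 1 panel per class; the dotted line is the class size. All 8 lines rise in each panel, from 1 to 3.09 up to 5.54 to 5.73 of the 6 oocyte members.

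Summed over members, germ cell transcripts made up 223 to 299 of every 1e+06 counts in mature libraries and 31.6 to 56.1 in immature ones, and the ranges do not overlap. Oocyte members summed to 81.8 to 116 on this scale against 4.02 to 13.8, early germline members to 84.0 to 139 against 7.97 to 22.0, and sperm members to 14.3 to 30.4 against 2.47 to 7.30. Meiotic members came closest, at 25.4 to 35.8 against 8.61 to 21.5. The sum rests on few genes. Zp2 alone took 24.7% of all member counts in mature mTEC, and Zp2, Piwil4 and Tex14 together took 49.7%.

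By level per length, in reads per kilobase of exon per 1e+06 counts (RPKM), members were low next to other genes. The median over 19556 protein-coding genes with a count in mature mTEC of control mice was 3.55 RPKM, and 6 of the 38 members stood above it. These were Zp2, Oosp1 and Zp3 of the oocyte, Piwil4 and Tex14 of the early germline, and Tnp2 of sperm, at 23.6 ± 4.10, 10.6 ± 2.86, 8.48 ± 0.801, 7.17 ± 0.835, 5.35 ± 1.13 and 5.78 ± 2.52 RPKM in that order (SD, n = 4 mice). Every library of Zp2 stood above those of the other 5, and each later neighbour in the order of means overlapped with the next. The highest meiotic member, Rec8, stood at 1.498 ± 0.242 RPKM.

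**Figure D2:**
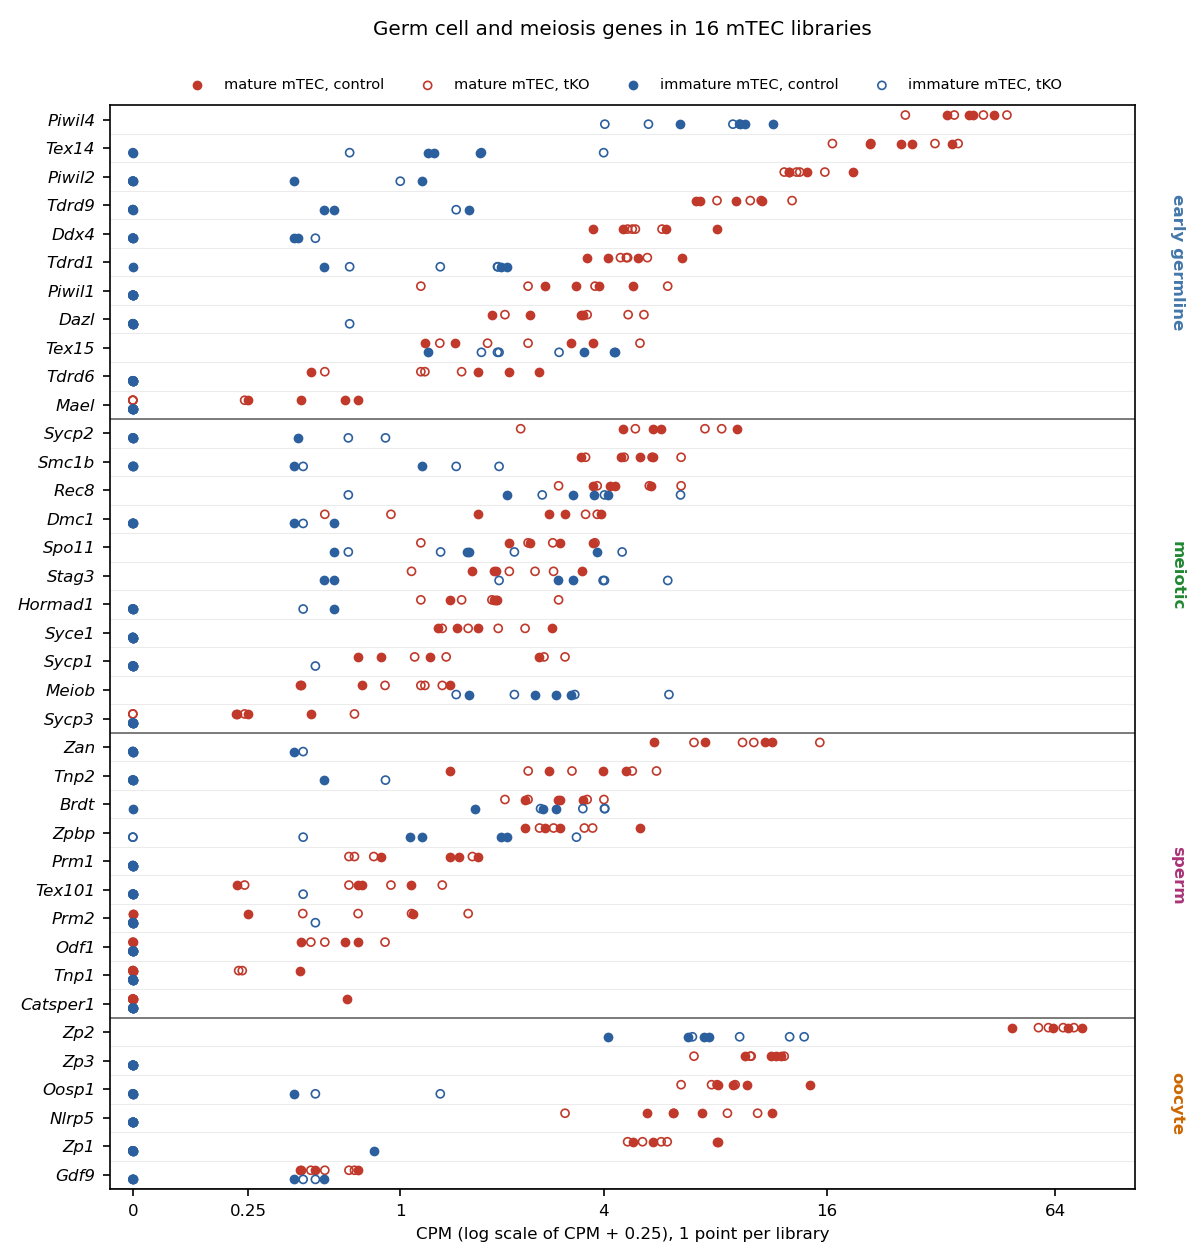
CPM of all 38 members in all 16 libraries (x axis, log scale of CPM + 0.25), by class and by level; red is mature and blue immature mTEC, filled control and open tKO, and points at 0 lie on each other. Blue points sit at 0 in all 8 immature libraries for 11 members, while Rec8, Spo11, Stag3, Brdt, Tex15 and Meiob have blue points among or above the red ones.

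Mature and immature mTEC were compared in the 4 control mice with edgeR's quasi-likelihood test. This sets MHCII high against MHCII low sorted cells, and which part of the difference comes with maturation was not tested. Of the 38 members, 16 had enough counts to be tested, and 14 rose in mature mTEC by more than 2-fold with an adjusted p (Benjamini-Hochberg) below 0.05. None fell. Over all genes tested, 23.7% rose and 10.8% fell. Members seldom counted in immature mTEC reached the test through their mature libraries, so the 14 of 16 cannot be read as support, and the other 22 members had too few counts. Without a filter on low counts, 24 of the 38 rose and Meiob fell, against 14.8% and 4.16% of all genes. Over all 8 mice, 22 members had every mature library above every immature one in CPM, against 13.4% of the 51906 genes with a count, and 1 member, Meiob, had every mature library below, against 5.09%. The median log2 fold change over the tested members was 4.44, or 4.36 with genes at 0 in immature mTEC set to their bound, and it is high in part because of how members reached the test. Over all genes it was 0.017.

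**Figure D3:**
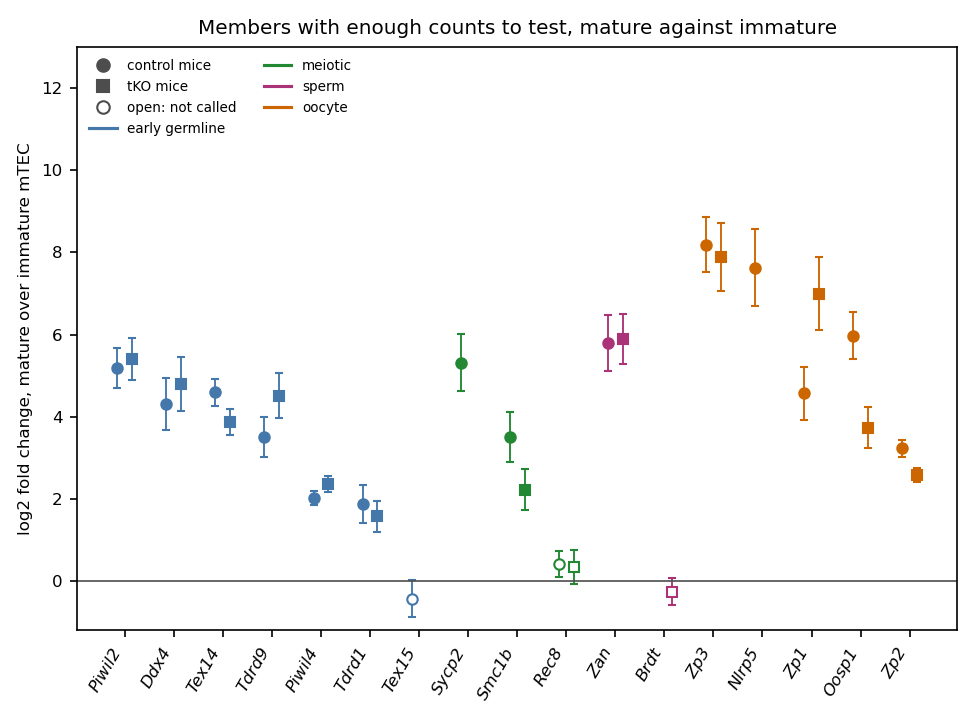
Log2 fold change of mature over immature mTEC (y axis) for members with enough counts, in control mice (circles) and tKO mice (squares), with the standard error; colours are the classes and open symbols were not called. Zp3 stands highest at 8.18 in control mice, a fitted value that depends on the prior count since Zp3 was at 0 in immature mTEC, as were Nlrp5 and, in tKO mice, Zp1, and Rec8, Tex15 and Brdt lie between -0.43 and 0.42.

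Values for 4 mice of a genotype are given below in the order Rbfox1 line replicates 2 and 3, then Rbfox2 line replicates 1 and 2.

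Of the 11 early germline genes, 6 of the 7 tested rose in mature mTEC of control mice, with Tex15 as the other. Piwil4 encodes the nuclear PIWI protein that guides DNA methylation of transposons in fetal male germ cells, and lies at chr9:14696230-14740733 on GRCm38. It had 37.98, 44.2, 39.0 and 33.3 CPM in mature and 11.5, 9.41, 9.69 and 6.47 CPM in immature mTEC of control mice. In tKO mice it had 47.8, 41.5, 34.8 and 25.8 CPM in mature and 9.38, 8.99, 4.03 and 5.31 CPM in immature mTEC. Every mature library stood above every immature one. The log2 fold change was 2.02 with a standard error (SE) of 0.162 in control mice (adjusted p = 6.85e-08, edgeR's quasi-likelihood test). With 132 counts over the 8 immature libraries, Piwil4 was the early germline gene best counted in immature mTEC. Its exons share 137 bases with Gm10706 on the other strand, and the use of strand in counting is not given, so some reads may belong to that gene.

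Tex14, which keeps open the bridges between dividing germ cells, had 27.0, 34.4, 20.8 and 25.1 CPM in mature mTEC of control mice and 3, 3, 0 and 3 counts in their immature libraries. In tKO mice it had 35.6, 30.9, 16.6 and 20.95 CPM in mature mTEC and 4, 8, 1 and 0 counts in immature mTEC. All mature libraries were again higher, by a log2 fold change of 4.598 (SE 0.332) in control mice and 3.87 (SE 0.321) in tKO mice. Piwil2 encodes the PIWI protein that makes and amplifies the small RNAs of the germline. It had 12.7, 18.8, 12.7 and 14.2 CPM in mature mTEC of control mice and 13.6, 15.8, 13.3 and 12.3 CPM in those of tKO mice. Its immature libraries held 5 counts over all 8 mice, in 3 of the libraries. Piwil2 levels in mature mTEC were thus close to each other in all 8 mice, and the fold in control mice was 40.8 by pooled counts, with a 95% counting interval of 13.8 to 199.

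The remaining early germline genes were lower. Ddx4, the germ cell RNA helicase also called VASA, had 97 counts in mature and 2 in immature mTEC of control mice, and the helicase Tdrd9 150 and 6. Tdrd1, a scaffold for PIWI proteins, was less unequal, with 84 and 11 counts and a log2 fold change of 1.88 (SE 0.462). Piwil1 (65 counts), Dazl (50) and Tdrd6 (31) had none in immature mTEC of control mice. Their pooled CPM was at least 10.4-fold, 7.99-fold and 4.96-fold higher in mature mTEC, taken against 3 counts over the 4 immature libraries. Mael had 9 counts in mature control libraries and 1 in mature tKO libraries, too few to compare. Tex15, which acts with PIWI proteins in transposon silencing, went against the class. It had 43 and 27 counts in control mice, with a log2 fold change of -0.43 (SE 0.449) and libraries that overlapped.

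Meiotic genes split into 3 kinds. Of 3 tested in control mice, Sycp2 and Smc1b rose and Rec8 did not pass. The cohesin subunit Rec8, the highest meiotic member per length, had 5.40, 4.16, 4.304 and 3.73 CPM in mature and 2.13, 3.27, 3.77 and 4.12 CPM in immature mTEC of control mice. In tKO mice it had 5.34, 3.84, 2.99 and 6.52 CPM in mature and 4.02, 6.495, 2.68 and 0.664 CPM in immature mTEC. The populations overlapped, and the log2 fold change was 0.42 (SE 0.312) in control and 0.34 (SE 0.417) in tKO mice. Stag3, another meiotic cohesin subunit, and Spo11, which cuts DNA to start recombination, also had counts in all 16 libraries with overlapping levels. Their folds in control mice by pooled counts were 1.10 (95% counting interval 0.608 to 2.07) and 1.41 (0.7999 to 2.61). In tKO mice Stag3 stood at 0.536 (0.322 to 0.899), from 37 counts in mature and 30 in immature mTEC.

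Meiob, which binds single-stranded DNA during recombination, was the member with the opposite order. It had 2, 2, 6 and 3 counts in mature and 6, 4, 6 and 5 in immature libraries of control mice. In tKO mice these were 4, 5, 5 and 5 in mature and 5, 3, 9 and 5 in immature libraries. In CPM the highest mature library stood at 1.43 and the lowest immature one at 1.499, so the populations did not overlap, though narrowly. The pooled fold in control mice was 0.297 (95% counting interval 0.137 to 0.621).

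Of the 4 synaptonemal complex members, Sycp2 alone had enough counts to be tested, and it rose. Syce1, a central element protein, had 1.51, 1.31, 2.87 and 1.74 CPM in mature mTEC of control mice and 2.002, 2.398, 1.36 and 1.63 CPM in those of tKO mice. It had no count in any immature library, so that its level was at least 5.12-fold higher in mature mTEC of control mice. Sycp2 had 109 counts in mature and 1 in immature mTEC of control mice, and Sycp1 24 and 0. Sycp3, an axis protein whose exons share 660 bases with Chpt1 on the other strand, had 9 counts over all mature libraries and none in immature ones, too few for a fold.

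The recombinase gene Dmc1 had 2.81, 3.94, 3.11 and 1.74 CPM in mature mTEC of control mice and 3.56, 3.84, 0.543 and 0.931 CPM in those of tKO mice. Its immature libraries held 3 counts in all. Both Rbfox2 tKO libraries were the lowest of the mature ones. Smc1b, a cohesin subunit, had 80 counts in mature and 3 in immature mTEC of control mice (log2 fold change 3.51, SE 0.6003), and Hormad1, an axis protein, 32 and 1.

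Sperm genes had the lowest summed counts of the 4 classes, and Zan was the only 1 of 10 with enough counts to be tested in control mice. Counts also depend on length. Zan has 19813 exon bases and stood at 0.447 RPKM in mature mTEC of control mice, and Tnp2 has 554 and stood at 5.78 RPKM. Tnp2, a transition protein that replaces histones in the spermatid, led the class per length, above the highest meiotic member. It had 2.81, 4.599, 1.43 and 3.97 CPM in mature mTEC of control mice and 2.45, 4.795, 3.26 and 5.59 CPM in those of tKO mice. Immature mTEC held 1 count in control and 2 in tKO mice, so each mature library was above each immature one. Prm1, a protamine of the sperm nucleus, had 4, 7, 6 and 7 counts in mature mTEC of control mice, 3, 7, 3 and 3 in those of tKO mice, and none in immature mTEC. Its level was at least 3.84-fold higher in mature mTEC of control mice. Prm1, Prm2 and Tnp2 lie within 17.9 kb of each other on chromosome 16, and Prm2 had 22 counts over the 8 mature libraries, Tnp1 on chromosome 1 4 counts.

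Zpbp, a protein of the acrosome, had 3.02, 5.04, 2.39 and 2.73 CPM in mature and 2.13, 2.04, 1.08 and 1.18 CPM in immature mTEC of control mice. In tKO mice it had 2.89, 2.64, 3.53 and 3.72 CPM in mature and 0.446, 0, 3.36 and 0 CPM in immature mTEC, where 1 immature library reached the mature ones. Its exons share 223 bases with Spata48 on the other strand. Zan, a sperm protein that binds the egg coat, had 154 counts in mature and 1 in immature mTEC of control mice. It rose with a log2 fold change of 5.80 (SE 0.685), and its exons share 33 bases with Ephb4 on the other strand. Brdt, a bromodomain protein that binds acetylated histones, overlapped between the populations, with 52 and 14 counts in control mice and 51 and 26 in tKO mice. Tex101, Odf1 and Catsper1 had 25, 16 and 3 counts over the 8 mature libraries.

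Oocyte genes included the 3 members highest per length, Zp2, Oosp1 and Zp3. The 5 with enough counts to be tested rose, and all but Zp2 reached the test through their mature libraries. Zp2, a structural protein of the egg coat, lies at chr7:120126772-120145291. It had 75.3, 49.3, 69.3 and 63.1 CPM in mature and 6.82, 7.77, 7.54 and 4.12 CPM in immature mTEC of control mice. In tKO mice it had 67.2, 71.7, 57.9 and 61.5 CPM in mature and 9.38, 6.995, 12.8 and 13.9 CPM in immature mTEC. The lowest mature library was well above the highest immature one, and the log2 fold change was 3.23 (SE 0.200) in control mice (adjusted p = 5.03e-09, edgeR's quasi-likelihood test) and 2.58 (SE 0.172) in tKO mice. Zp2 had counts in all 8 immature libraries, which no other oocyte member did.

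Oosp1, an oocyte-secreted protein, had 8.20, 8.98, 9.80 and 14.4 CPM in mature mTEC of control mice and 9.12, 8.15, 7.88 and 6.52 CPM in those of tKO mice. Its immature libraries held 1 count in control and 4 in tKO mice, and no mature library was near them. Zp3, another protein of the egg coat, had 12.1, 11.4, 11.7 and 9.69 CPM in mature mTEC of control mice and 10.01, 10.1, 7.06 and 12.3 CPM in those of tKO mice. It had no count in any immature library. Against 3 counts over the immature libraries, Zp3 was at least 31.3-fold higher in mature mTEC of control mice and at least 24.1-fold higher in those of tKO mice.

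Nlrp5, an egg protein needed by the early embryo, was likewise absent from immature mTEC, with 133 counts in mature mTEC of control mice and a level at least 21.3-fold higher. Zp1, which links the filaments of the egg coat, had 116 counts in mature and 2 in immature mTEC of control mice. Gdf9, a growth factor of the oocyte, had 9 counts in mature and 2 in immature mTEC of control mice, too few to set the populations apart. Its mature and immature libraries overlapped.

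In the 4 tKO mice, 14 members could be tested between the populations, and 12 rose and none fell, against 23.2% and 11.5% of all genes. Rec8 and Brdt did not pass. Without the filter, 24 rose and 1 fell, against 16.2% and 4.88%, and the 25 genes were those of control mice. The median log2 fold change of the tested members was 3.80, or 3.71 with genes at 0 set to their bound, with the same limit as in control mice, and 0.036 over all genes. Whether the difference between the populations itself differed between tKO and control mice was tested as an interaction on 25 members. It called 0 members and 0% of all genes, and 2 members had an unadjusted p under 0.05. The median standard error was 1.54 on the log2 scale, and it reached 2669 for Oosp1. For members at or near 0 in immature mTEC the interaction could not show a difference between tKO and control mice.

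Of a list of 76 further germline genes, 27 could be tested in control mice, and 17 rose and none fell in mature mTEC, against 23.7% and 10.8% of all genes. Some of them, such as Pou5f1, had enough counts through their mature libraries alone, so these counts cannot be read as support. By class these were 7 of 9 early germline, 4 of 9 meiotic, 0 of 3 sperm and 6 of 6 oocyte genes. The germline pluripotency factor Pou5f1 had 293 counts in mature and none in immature mTEC of control mice, at least 46.8-fold higher. Asz1, which works with PIWI proteins, had 67 and none, at least 10.7-fold higher. The meiotic genes Tex11 and Stra8, the latter a gene that starts meiosis, rose by log2 fold changes of 5.03 (SE 0.514) and 3.48 (SE 0.316). Astl, the egg protease that hardens the egg coat after fertilization, had 110 counts and none, and Khdc3, a partner of NLRP5 in the egg, rose by 4.24 (SE 0.662). In tKO mice 17 of 26 rose and none fell, against 23.2% and 11.5% of all genes and with the same limit. In no tKO or sex comparison was any of the 76 called.

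Loss of RBFOX1 or RBFOX2 was then examined in mature mTEC, where 26 of the 38 members could be tested in 2 tKO against 2 control mice per line. No member was called in Rbfox1 tKO against control, where 0.0166% of all genes were, or in Rbfox2 tKO against control, where 0.0277% were. With DESeq2 the count was 0 in both as well. At an unadjusted p under 0.05, edgeR's quasi-likelihood test had 1 member for Rbfox1 and 2 for Rbfox2, and DESeq2 had none. The median log2 fold change over the 26 members was 0.072 for Rbfox1 and -0.13 for Rbfox2, against 0.0018 and 0.0012 over all genes. Standard errors of the members ranged from 0.146 to 0.641 and from 0.151 to 0.751 on the log2 scale, with medians of 0.367 and 0.389. Small changes were thus not detectable, and changes of 2-fold or more could go uncalled. In counts simulated over all genes for the Rbfox2 comparison, the same test recovered 57% of 2-fold and 87.5% of 4-fold changes. That was at an adjusted p below 0.05 without the fold threshold of a call, so calls would be no more frequent. Recovery at the low counts of the members was not examined.

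**Figure D4:**
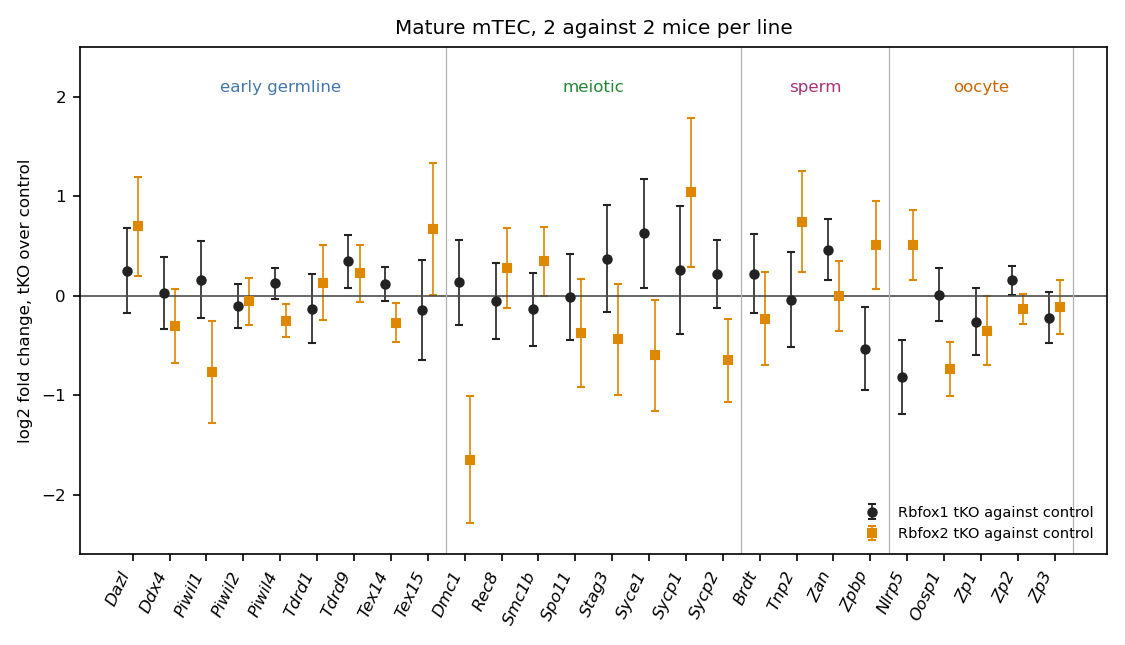
Log2 fold change of tKO over control in mature mTEC (y axis) with the standard error, for the 26 members with enough counts, in the Rbfox1 line (black circles) and the Rbfox2 line (orange squares). Values run from -0.82 for Nlrp5 to 0.63 for Syce1 in the Rbfox1 line and from -1.65 for Dmc1 to 1.04 for Sycp1 in the Rbfox2 line, and none was called.

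The members named next were chosen after their values were seen, for an unadjusted p under 0.05. Nlrp5 had 6.23 and 3.12 CPM in mature mTEC of Rbfox1 tKO mice and 11.4 and 5.26 CPM in their controls. In the Rbfox2 line it had 8.69 and 10.5 CPM in tKO mice and 7.41 and 6.21 CPM in controls. The log2 fold change was thus -0.82 (SE 0.371) in the Rbfox1 line and 0.51 (SE 0.352) in the Rbfox2 line, and the libraries of the Rbfox1 line overlapped. Dmc1 had a log2 fold change of -1.65 (SE 0.635) in Rbfox2 tKO mice, from 2 and 4 counts against 13 and 7, and its 2 tKO libraries lay below both controls. Oosp1 stood at -0.74 (SE 0.272) in the same comparison, also without overlap. None of the 3 passed adjustment over all genes, with adjusted p-values of 0.9996, 0.859 and 0.8294 by edgeR's quasi-likelihood test. Zp2, the best counted member, had log2 fold changes of 0.16 (SE 0.146) in the Rbfox1 line and -0.14 (SE 0.151) in the Rbfox2 line. Piwil4 stood at 0.12 (SE 0.153) and -0.25 (SE 0.167), and Tex14 at 0.12 (SE 0.170) and -0.27 (SE 0.195).

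In immature mTEC only Piwil4 and Zp2 could be tested for loss of RBFOX1 or RBFOX2. The gene total of Rbfox1 there was only slightly lower in Rbfox1 tKO mice, so it does not show how far RBFOX1 was lost. Neither Piwil4 nor Zp2 was called, against 0.0306% of all genes in the Rbfox1 and 0.0536% in the Rbfox2 line. DESeq2 gave 0 as well. At an unadjusted p under 0.05 both tools had 0 of the 2 in the Rbfox1 and 1 in the Rbfox2 line. Zp2 stood at 12.8 and 13.9 CPM in Rbfox2 tKO mice and at 7.54 and 4.12 CPM in their controls, a log2 fold change of 1.23 (SE 0.406) whose adjusted p was 0.622 by edgeR's quasi-likelihood test. In the Rbfox1 line Zp2 had 9.38 and 6.995 CPM against 6.82 and 7.77 CPM, which overlap. Whether the effects of the 2 knockouts differed was tested as an interaction on all 16 libraries together, where 25 members could be tested. It called no member in mature mTEC, against 0.00573% of all genes, and none in immature mTEC, against 0.0115%. In each, 2 members had an unadjusted p under 0.05 by edgeR's quasi-likelihood test. These were Nlrp5 and Dmc1 in mature and Rec8 and Zpbp in immature mTEC. The median standard error on the log2 scale was 0.570 in mature and 1.63 in immature mTEC, where it reached 6883 (Dazl). For members at or near 0 in immature mTEC the interaction could not show a difference.

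Oocyte transcripts were counted in male mice and sperm transcripts in female mice. In mature mTEC the oocyte members summed to 81.8 to 105 of every 1e+06 counts in male and 94.6 to 116 in female mice, and the sperm members to 14.3 to 30.4 in male and 19.4 to 24.0 in female mice. The ranges overlap in both classes. No member of the 26 tested was called between the sexes, against 0.0277% of all genes. DESeq2 gave 0 as well, and at an unadjusted p under 0.05 edgeR's quasi-likelihood test had 3 members and DESeq2 none. These were Nlrp5 with a log2 fold change of 0.51 in female against male mice, Sycp2 with -0.52 and Sycp1 with -0.97.

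The 2 lines were compared as well, with 4 mice each, after the counts had been seen. In mature mTEC Dmc1 was lower in the Rbfox2 line by a log2 fold change of -1.34 (SE 0.377, adjusted p = 0.0227, edgeR's quasi-likelihood test), and it was the only member called, against 1.04% of all genes. It ranged from 2.81 to 3.94 CPM in the Rbfox1 line, from 1.74 to 3.11 CPM in Rbfox2 control mice and from 0.543 to 0.931 CPM in Rbfox2 tKO mice. In control mice alone the log2 fold change was -0.46 (SE 0.467, adjusted p = 0.667), and the call was also lost in DESeq2. With each mouse left out in turn it was kept without Rbfox1 control replicate 2 or Rbfox2 control replicate 1 and lost without any of the other 6. Tex14 (-0.60, SE 0.129) and Piwil4 (-0.36, SE 0.113) passed the adjusted p alone, as 13.2% of all genes did. Aire went with the line too, at 1255 to 1612 CPM in the Rbfox1 and 651 to 916 CPM in the Rbfox2 line in mature mTEC and at 207 to 299 against 18.8 to 51.8 CPM in immature mTEC, and its part in these differences was not tested. In immature mTEC neither of the 2 members tested was called, against 5.05% of all genes, with 1 at an unadjusted p under 0.05 by edgeR's quasi-likelihood test and 0 called by DESeq2. There the fibroblast and endothelial markers summed to 153 to 360 CPM in the Rbfox1 and 880 to 1499 CPM in the Rbfox2 line. Genotype of the floxed gene, breeding and handling of the lines cannot be told apart.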

How the data were processed

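The authors deposited 1 table of read counts per gene for 16 libraries, without normalization. Per the labels, libraries were stranded, paired-end and made from poly(A) RNA. Alignment to mm10, duplicate marking and counting were credited in the submitters' processing notes to HISAT2 2.1.0, Picard 2.10.9 and featureCounts 1.6.0, without settings, and the column names say that duplicate and unmapped reads were removed and libraries down-sampled, to 14500000 for mature and 10000000 for immature mTEC. The sources used here do not give whether reads were counted by strand. Names, positions and exon lengths came from GENCODE M21 (GRCm38), and promoters from RefSeq.

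Counts were tested in edgeR 4.0.16 (R 4.3.3) with TMM factors, filterByExpr at a minimum count of 10, the quasi-likelihood test and Benjamini-Hochberg adjustment over all rows. A call needed a change of more than 2-fold with an adjusted p below 0.05, and differences between effects the adjusted p alone. Standard errors are the log2 fold change over the root of the test's F. Populations were compared within genotype with line as covariate, and tKO with control on the 8 libraries of a population. CPM and RPKM use TMM-scaled totals of all 16 libraries. Replicates are separate mice, and the 2 libraries of a condition differed by more than counting noise (chi-square 1.78 to 2.74 per degree of freedom). Numbers of members with a count are expected values at 1506134 counts (scipy 1.17.1). Counting intervals and the floor of 3 counts per group cover counting error only. DESeq2 1.42.0, other scalings and filters, the replicate block and each mouse left out were alternatives. The fits were tested on simulated data.

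Mature and immature libraries of 1 number come from 1 mouse (correlation of deviations 0.114 to 0.213), and tKO and control mice of 1 number share their sex and may be the sex-matched littermates that the methods name (0.0503 to 0.210). Members, lists and tests were chosen with earlier results of these data known. By the naming rule, each library is given for the 3 members of each class highest in RPKM in mature control mTEC, and from the list of 76 genes the 2 with the largest change per class. Promoters are those of called members with the largest change and a searched motif, up to 2 per class. Only bases outside GENCODE exons were printed, so Tex14 and Ddx4, whose motifs lie in exons, were passed over.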

Additional observations from a re-analysis of the deposited data

Results flagged for a closer look

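Stag3 stood apart in 1 of the 4 control mice in mature mTEC. The library of Rbfox2 control replicate 2 had 3.48 CPM, from 14 counts, and the other 3 had 1.67 to 1.97 CPM, so that the gap took 0.835 of the range, more than Dixon's critical value for 4 samples. Over the 26 members tested in mature mTEC and both genotypes, 52 such groups were looked at, of which chance would set apart about 2.6.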

How the results depend on the processing

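The counts of members that rose in mature mTEC, 14 in control and 12 in tKO mice, were the same with DESeq2, its size factors, library totals, no fold threshold, no line covariate and the mouse as a replicate block (14 and 12). For the 16 and 14 members tested, 182 of 183 and 160 of 161 alternative values kept their direction and side of the threshold. The exceptions were Tex15, which passed in control mice at -1.03 without Rbfox1 control replicate 3, and Rec8, which ranged from -0.154 (without Rbfox2 tKO replicate 2) to 0.876 in tKO mice with each mouse left out and never passed. The filter set the counts. Without it 25 members were called in each genotype, and 36 and 41 of the other germline genes in control and tKO mice against 17 and 17. Where every library had to hold 10 counts, 1 member and 1 other gene were left to call in each genotype, and thinning to the smallest total left 6 members and 8 other genes in each. Leaving out each mouse gave 14 to 15 members in control and 12 to 14 in tKO mice, and 17 to 19 and 17 to 18 of the other genes. In tKO against control, 50 of 50 alternatives, the number-matched mice as a replicate block among them, called 0 members, and so did 14 of 14 between the sexes. The replicate block changed no other call. The difference in members with a count, 18.4, was 14.0 at 5 counts or more. Between the lines in mature mTEC, 1 member was called, but 0 with DESeq2 or control mice alone, 2 with library totals, 3 without a fold threshold and 0 to 2 with each mouse left out. In immature mTEC, 0 became 1 without the filter. A stricter filter or thinning tests fewer genes. The cause of the other shifts was not tested. With 2 mice per group and few counts per member, small changes were not detectable, and changes of 2-fold or more could go uncalled. This held most of all in immature mTEC.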

Other observations

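Several genes known from the germline were well counted in both populations and did not follow the members. In control mice Tdrd7, a tudor protein also used in the lens, had 78.6 ± 8.06 CPM in mature mTEC and 60.8 ± 6.68 CPM in immature ones (SD, n = 4). Odf2, an outer dense fibre and centriole protein, had 77.6 ± 8.37 and 74.3 ± 11.9 CPM. Mlh3, a mismatch repair protein, had 27.5 ± 3.004 and 35.9 ± 4.15 CPM, and the transcription factor Crem 10.8 ± 1.68 and 10.9 ± 1.87 CPM. Dppa3, an early germline and oocyte gene, was on the side of the members, with 50.03 ± 8.15 and 1.67 ± 1.25 CPM. The sperm gene Ldhc had 85 counts in mature and 1 in immature mTEC of control mice.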
